A study of Mus musculus with 4 samples.

Results

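The genes that make, take up, store and export cholesterol were followed in bulk RNA-seq libraries of mouse alveolar macrophages, the resident phagocytes of the lung's air sacs. The set was chosen by name: 36 gene symbols were looked up in the deposited expression table, and 35 of them were found among 16754 rows that carry a symbol. The row of Msmo1, a demethylase of the pathway, stands in the table under its older symbol Sc4mol, so it was not counted as a member and its values are given separately. By role the 35 genes were grouped as 17 synthesis enzymes, 5 genes of SREBP control, 6 genes of uptake and intracellular pools, 5 genes of efflux and its nuclear receptors, and 2 oxysterol enzymes.

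The macrophages were sorted by flow cytometry from lungs of C57BL6 mice that were wild type (WT) or lacked osteopontin (OPNKO, written Spp1-/- in the design text), with 2 libraries per genotype. Every library carries a bleomycin tag, bleomycin being a drug that injures the lung, and the deposited columns name day 14, while a protocol field speaks of no treatment; no untreated group was analysed here. The sources used here do not give the age and sex of the mice, the structure of the Spp1 allele or the number of animals behind a library. The p-values therefore measure only how far these libraries spread, which may be technical. Groups follow the sample titles, because the genotype tag contradicts the title in 2 of 4 samples.

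Cells build cholesterol from acetyl-CoA by way of mevalonate and squalene. The transcription factor SREBP2 switches on these enzymes when membranes are low in sterol, and the proteins SCAP and INSIG hold it in the endoplasmic reticulum when sterol is plentiful. Surplus sterol is turned into oxysterols that activate the liver X receptors (LXR), which raise the exporters ABCA1 and ABCG1 and the lipid carrier apolipoprotein E. Alveolar macrophages clear surfactant, a film rich in phospholipid and cholesterol, and mice without Abcg1 accumulate lipid in these cells.

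Libraries held 35793800 to 44759630 reads in genes, and the member with the fewest reads in any library, Tm7sf2, still had 497. Spp1, the targeted gene, had normalized values of 545719 and 606517 in WT and of 4106 and 3847 in OPNKO, so it followed the titles. All 14 listed markers of alveolar macrophages, among them Marco, Itgax and Siglec1, were above 0 in every library. Together they made up 2.6% and 2.7% of all values in WT and 1.87% and 2.19% in OPNKO, where 3 of them rose and 2 fell. Markers of other cells were also present. Several lists were higher in WT replicate 2. The 12 fibroblast markers summed to 1009 in WT replicate 1, 5519 in WT replicate 2, 909 in OPNKO replicate 1 and 602 in OPNKO replicate 2. The 7 erythroid and platelet markers found summed to 230, 552, 274 and 168 in the same order. WT replicate 2 exceeded WT replicate 1 in all 10 endothelial markers, whose sums were 5153 and 7104 in WT and 7087 and 6612 in OPNKO. It also exceeded WT replicate 1 in 10 of 10 B and plasma cell, 11 of 11 T and NK cell and 9 of 11 epithelial markers. Among alveolar macrophage markers it did so in 5 of 14. Other lists differed with genotype, among them 10 markers of B and plasma cells (sums of 30519 and 40687 in WT, 7270 and 6968 in OPNKO, 4 of 10 fell), 11 of T and NK cells (2331 and 2895 in WT, 5438 and 8810 in OPNKO, 5 of 11 rose), 10 of dendritic cells (16877 and 16447 in WT, 10754 and 11765 in OPNKO, 3 fell) and 11 of epithelium (9126 and 11150 in WT, 6752 and 7008 in OPNKO, 2 fell). Of 10 monocyte markers 4 fell, while their sums overlapped (438438 and 429164 in WT, 450163 and 388471 in OPNKO). Neutrophil Camp was the 1 marker listed at 0 in a library. What these cells add to the cholesterol genes was not tested, and in bulk RNA fewer cells of a type and less RNA per cell cannot be told apart.

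In OPNKO macrophages 4 of the 35 cholesterol genes rose and 0 fell. They were the cholesterol exporter gene Abcg1 and the synthesis genes Idi1, Sc5d and Cyp51, with levels 1.31 to 1.5 times those of WT. Called genes passed an adjusted p of 0.05 in limma, which fits each gene linearly and borrows its variance estimate from the other genes, fitted to log2(value + 1) of all 16430 genes whose mean value reached 1 and adjusted by the Benjamini-Hochberg method over all of them. Among all genes tested 2.33% rose and 1.98% fell, 4.32% together. Of the 11623 tested genes whose mean value reached 50, 373 were called higher and 280 lower. Before adjustment, 15 members were higher and 1 was lower at p under 0.05, where the shares over all genes were 11.6% and 9.54%. None of the members was called lower by edgeR's quasi-likelihood test or DESeq2 on recovered reads either.

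**Figure D1:**
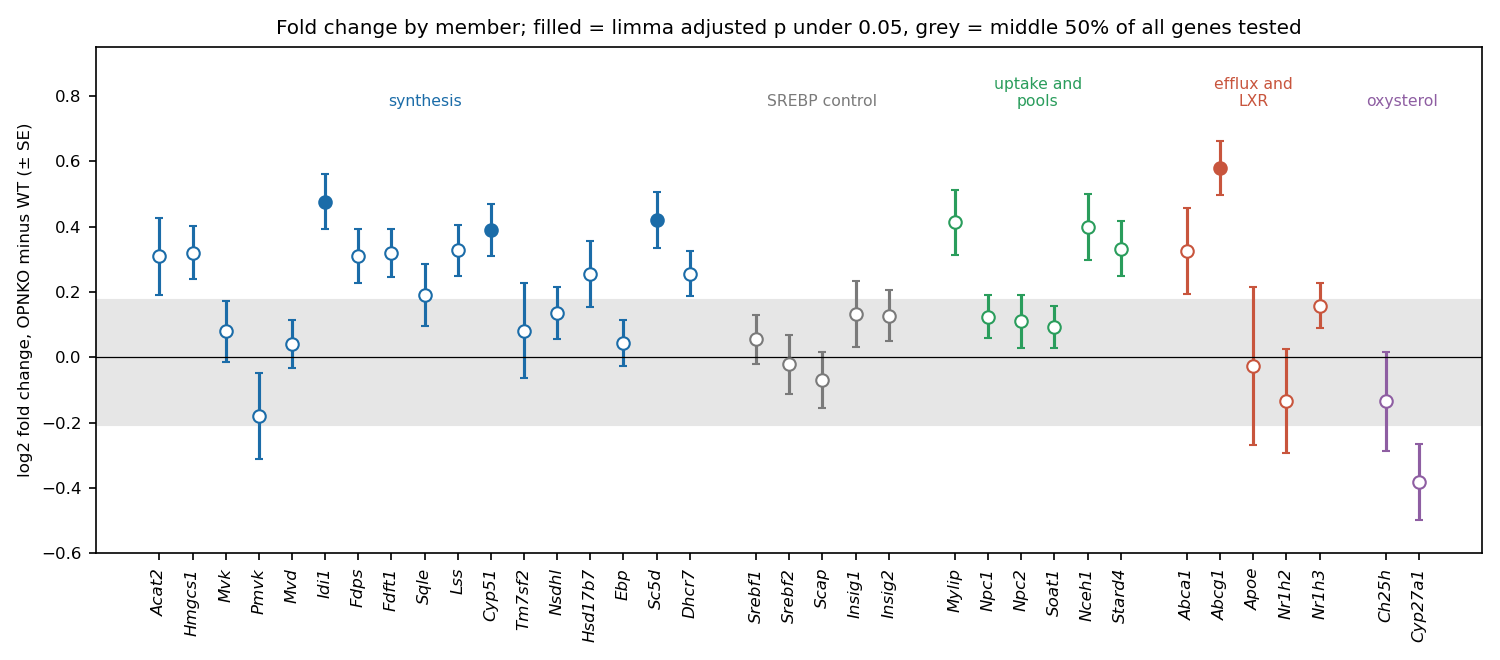
The log2 fold change of OPNKO over WT (log2(value + 1) scale, vertical axis) is plotted for each of the 35 genes by role, with its standard error from limma (2 libraries per genotype). Filled points passed the test (Idi1, Cyp51, Sc5d and Abcg1), and 16 of 17 synthesis genes lie above 0; the grey band spans the middle 50% of all genes tested, from -0.21 to 0.18.

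Cyp51 and Sc5d lie close to the threshold (limma adjusted p = 0.0442 and 0.0436), Idi1 and Abcg1 less so. Leaving out WT replicate 1 or WT replicate 2 leaves a single WT library. Nearly all calls by limma over all genes were then lost, these 4 among them. Leaving out an OPNKO library leaves a single OPNKO library. Many genes were then still called over all, but Cyp51 and Sc5d were called in neither such fit. Idi1 was not called without OPNKO replicate 1, nor Abcg1 without OPNKO replicate 2. Without WT replicate 1, 15 members were higher at an unadjusted p under 0.05, against 8.79% of all genes, and without WT replicate 2 there were 10, against 6.69%. When any 1 library was left out, the log2 fold change of Idi1 stayed between 0.43 and 0.53, that of Cyp51 between 0.29 and 0.49 and that of Sc5d between 0.31 and 0.53. That of Abcg1 stayed between 0.52 and 0.64. Without a filter on low values, or with limma's trend turned off, 0 members passed by limma, while 13 and 7 were higher at an unadjusted p under 0.05 (11.2% and 7.78% of all genes); edgeR called the same 4 genes (2.59% of all genes it tested were called higher) and DESeq2 called 10, all higher (4.72% of all genes).

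Synthesis enzymes were mostly higher in OPNKO. Of 17, 3 rose and 0 fell, 16 had a positive log2 fold change against 8207 of the 16430 genes tested, and their median log2 fold change was 0.26 against 0.00 over all genes. In 12 of the 17 both OPNKO libraries lay above both WT libraries. This arrangement was found in 27.7% of all genes and 31.8% of those whose mean value reached 50. In 0 did both lie below, as they did in 25.0% and 25.6% of the same sets. The median was 0.16 when OPNKO was set against WT replicate 1 alone and 0.34 against WT replicate 2 alone.

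Idi1 encodes isopentenyl diphosphate isomerase, which makes the activated isoprene unit that later enzymes join. It lies on the plus strand of chromosome 13 from 8885501 to 8892451 (GRCm38, GENCODE M21). WT replicates 1 and 2 had normalized values of 841 and 823, and OPNKO replicates 1 and 2 had 1199 and 1118. The WT libraries differed little, and both OPNKO libraries stood above them. The WT mean was 832 ± 13.2 and the OPNKO mean 1158 ± 57.2 (SD, n = 2). On the log2 scale OPNKO was higher by 0.48 ± 0.08 (SE; limma adjusted p = 0.0273).

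Cyp51 encodes lanosterol 14-alpha-demethylase, the first enzyme to trim the newly closed sterol rings, and lies on the minus strand of chromosome 5 from 4081145 to 4104746. Its values were 9452 and 8181 in WT and 11632 and 11417 in OPNKO. Genotypes did not overlap, and the WT libraries lay farther apart than the OPNKO libraries. The log2 fold change was 0.39 ± 0.08 (SE; limma adjusted p = 0.0442). Sc5d encodes lathosterol oxidase (sterol C5-desaturase), which acts near the end of the pathway; it lies on the minus strand of chromosome 9 from 42251595 to 42264256. Values of 2523 and 2163 in WT stood against 3175 and 3079 in OPNKO. Again WT replicate 2 was the lowest library, and the log2 fold change was 0.42 ± 0.09 (SE; limma adjusted p = 0.0436).

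Hmgcs1, which encodes the synthase that forms HMG-CoA, had the highest values of the synthesis genes, 13350 and 11806 in WT and 15049 and 16336 in OPNKO. Genotypes did not overlap, yet its log2 fold change of 0.32 ± 0.08 (SE) did not pass (limma adjusted p = 0.0797). Fdft1 and Fdps, whose enzymes make squalene and its farnesyl precursor, had log2 fold changes of 0.32 and 0.31 (limma adjusted p = 0.0623 and 0.0879). Acat2, the cytosolic thiolase at the start of the pathway, had a log2 fold change of 0.31 with a larger standard error of 0.12, and its values were 987 and 803 in WT against 1048 and 1163 in OPNKO.

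The other genes of mevalonate handling differed less. The kinase gene Mvk had a log2 fold change of 0.08 and the decarboxylase gene Mvd one of 0.04, and for both the groups overlapped. Pmvk, the phosphomevalonate kinase gene, was the 1 synthesis gene with a negative value (-0.18 ± 0.13, SE; limma adjusted p = 0.481). Its values were 2723 in WT replicate 1, 2020 in WT replicate 2, 2022 in OPNKO replicate 1 and 2117 in OPNKO replicate 2. WT replicate 1 stood alone above the other 3 libraries, so this sign rests on it: without that library the value was 0.03.

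From squalene to cholesterol, Lss and Dhcr7 were nearest to the called genes. Lss, whose enzyme closes the squalene epoxide into lanosterol, had values of 2417 and 2387 in WT and 2836 and 3203 in OPNKO (log2 fold change 0.33, limma adjusted p = 0.0665). Dhcr7, whose enzyme makes cholesterol from 7-dehydrocholesterol, had 4388 and 4004 in WT and 4937 and 5069 in OPNKO (log2 fold change 0.26, limma adjusted p = 0.0905). For both genes OPNKO stood above WT in every library. Hsd17b7, a ketoreductase gene, had a log2 fold change of 0.26, Sqle, the squalene epoxidase gene, one of 0.19 and Nsdhl, a decarboxylating dehydrogenase gene, one of 0.14, all with groups that did not overlap and without passing. Ebp, a sterol isomerase gene, and Tm7sf2, a sterol reductase gene, had values of 0.04 and 0.08 with overlapping groups. Msmo1, the C4-demethylase gene found under its older symbol, had values of 7180 and 5952 in WT and 8613 and 8311 in OPNKO (log2 fold change 0.37, limma adjusted p = 0.0751). Msmo1 did pass by DESeq2 (DESeq2 adjusted p = 0.010) and in the authors' deposited table (adjusted p = 0.0291). The median was 0.31 over the 8 genes before squalene epoxidation and 0.25 over the 9 genes from Sqle on.

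**Figure D2:**
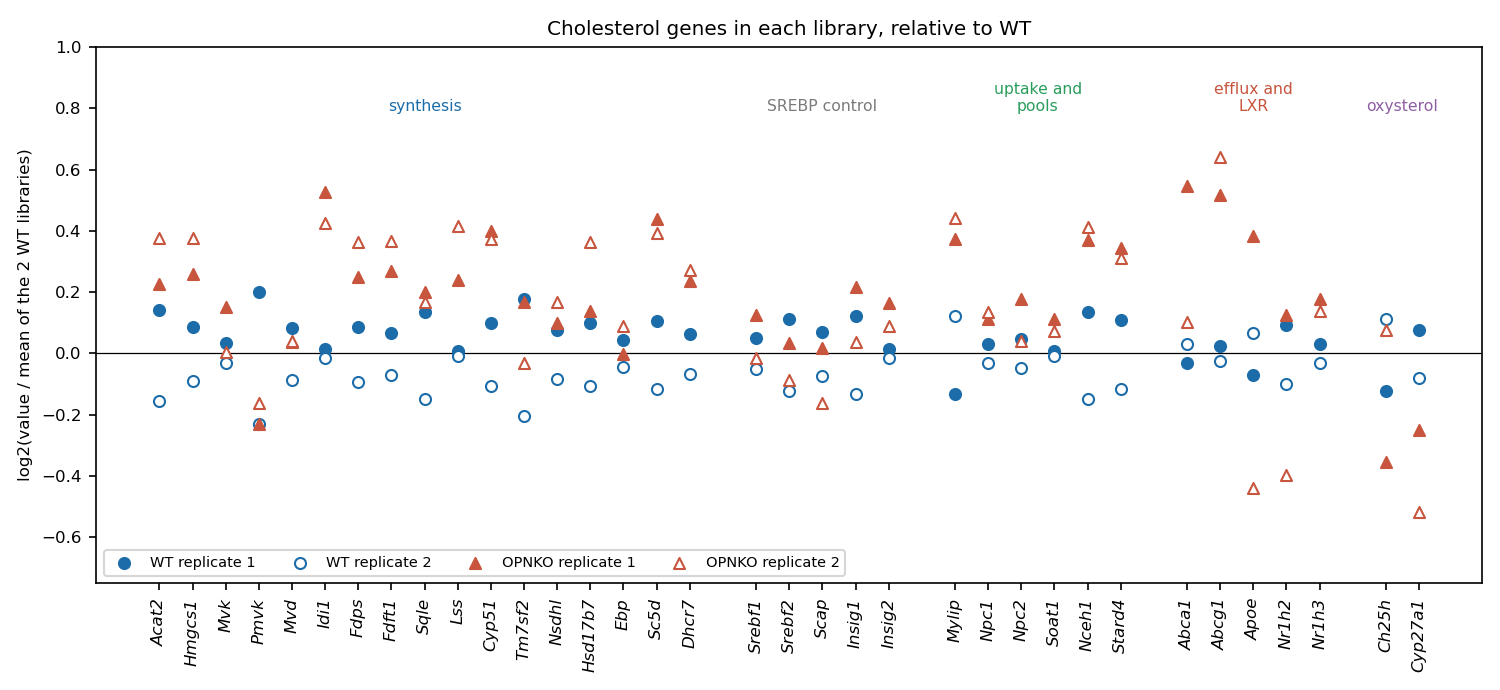
Each of the 35 genes is shown in the 4 libraries as log2 of the normalized value over the mean of the 2 WT libraries (vertical axis). Among synthesis genes the open circles of WT replicate 2 lie under the filled circles of WT replicate 1 in all 17, and OPNKO replicate 2 drops for Apoe and Nr1h2.

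Promoter letters are shown for the 3 called synthesis genes and for Hmgcs1, because these genes lay higher together. SREBPs bind sterol regulatory elements and usually act beside NF-Y, a factor that binds the letters CCAAT. The bases run 5′ to 3′ on the gene's strand, cover the 250 bases before the RefSeq start (GRCm38.p6), and have in capitals each CCAAT on either strand (ATTGG when read from the other strand) and each TCACNCCAC, the searched form of the sterol regulatory element; the motifs do not overlap. In Cyp51 and Idi1 the GENCODE gene model begins inside the printed stretch.
Cyp51, chr5:4104698-4104947, minus strand: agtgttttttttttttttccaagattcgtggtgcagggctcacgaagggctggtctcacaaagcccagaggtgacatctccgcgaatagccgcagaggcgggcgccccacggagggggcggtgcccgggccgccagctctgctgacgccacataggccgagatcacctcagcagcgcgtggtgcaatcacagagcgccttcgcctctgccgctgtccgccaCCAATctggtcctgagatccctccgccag
Idi1, chr13:8885356-8885605, plus strand: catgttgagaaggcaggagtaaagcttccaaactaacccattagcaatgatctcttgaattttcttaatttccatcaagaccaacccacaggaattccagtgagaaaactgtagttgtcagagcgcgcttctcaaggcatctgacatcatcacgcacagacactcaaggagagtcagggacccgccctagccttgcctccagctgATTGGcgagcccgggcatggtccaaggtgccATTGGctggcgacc
Sc5d, chr9:42264301-42264550, minus strand: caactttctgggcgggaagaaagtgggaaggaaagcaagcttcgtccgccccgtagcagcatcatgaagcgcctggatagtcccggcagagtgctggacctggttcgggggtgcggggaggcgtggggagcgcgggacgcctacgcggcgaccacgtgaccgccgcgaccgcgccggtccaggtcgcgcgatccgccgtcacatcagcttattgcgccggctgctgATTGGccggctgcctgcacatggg
Hmgcs1, chr13:119690101-119690350, plus strand: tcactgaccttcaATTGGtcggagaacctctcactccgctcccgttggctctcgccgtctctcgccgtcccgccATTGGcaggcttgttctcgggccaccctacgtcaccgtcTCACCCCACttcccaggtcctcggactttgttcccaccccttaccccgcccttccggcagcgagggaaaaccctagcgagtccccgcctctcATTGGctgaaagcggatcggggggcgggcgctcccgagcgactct

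Each of these stretches holds at least 1 CCAAT, and Hmgcs1 holds 3 together with the single match to TCACNCCAC found in any member's window. Other forms of the sterol regulatory element were not searched, so a stretch without this match may still hold one. RefSeq windows of 300 bases (250 before the start to 50 after) were given for 29 of the 35 genes; Fdps, Fdft1, Sqle, Npc1, Stard4 and Abcg1 had none. A CCAAT on either strand stood in a window of 13 of 14 synthesis genes (92.9%, Acat2 being the other). It also stood in 4 of 4 genes of uptake and pools, 4 of 5 control genes, 1 of 2 oxysterol genes and 0 of 4 efflux genes. By gene the share was 41.1% of all genes with a window and 43% of those whose mean value reached 50. By window the shares were 76.5% of 17 for synthesis genes and 0% of 7 for efflux genes, against 37.4% of all 32851 windows and 37.6% of the windows of genes whose mean value reached 50. The element TCACNCCAC stood in 1.24% of all windows. These are matches of letters and were not tested, and they were seen in members chosen by function.

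**Figure D3:**
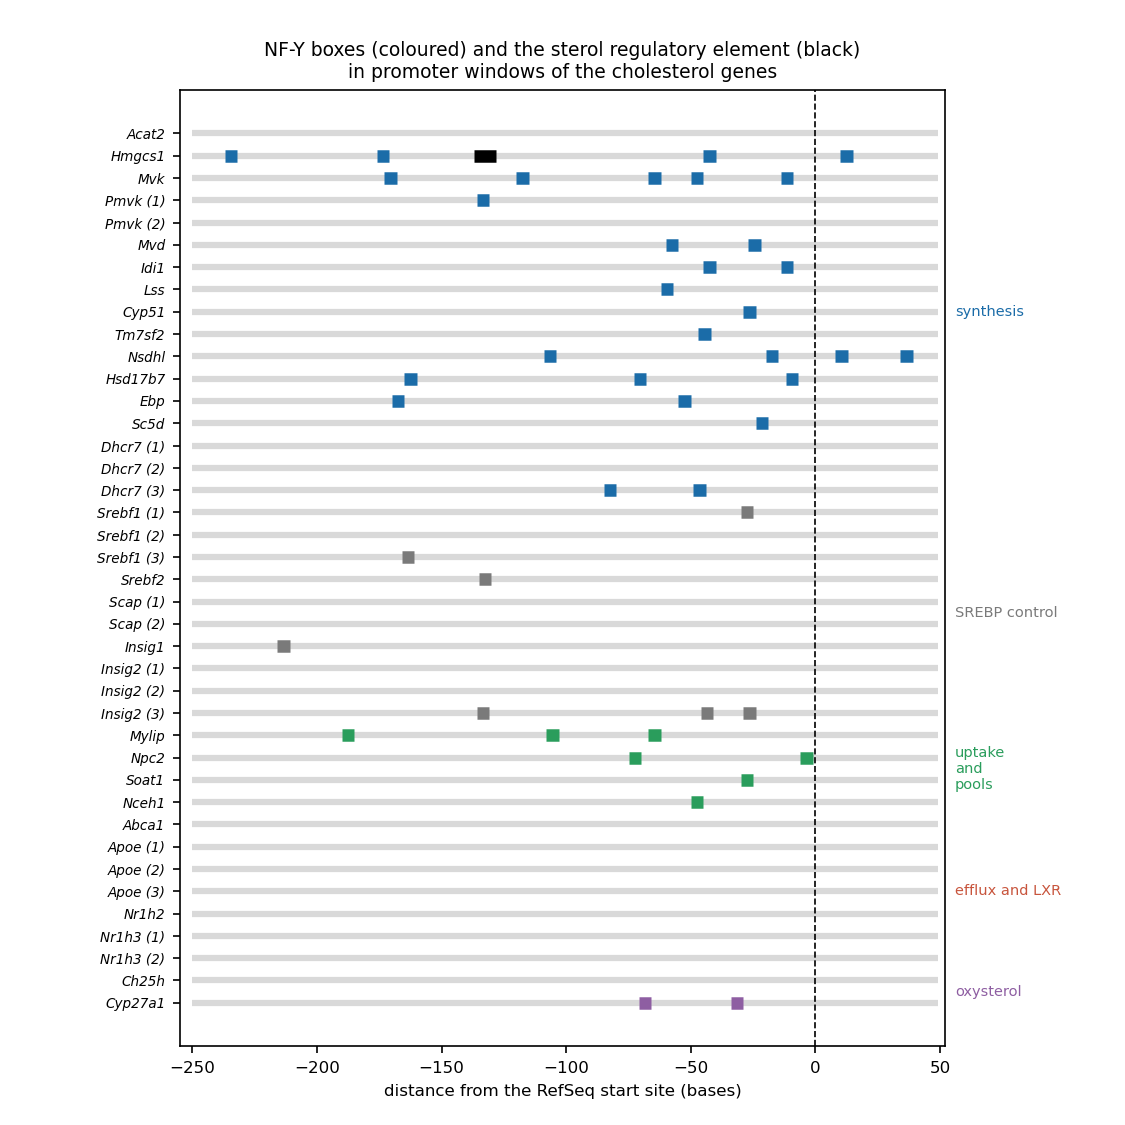
Each grey bar is 1 RefSeq promoter window of a cholesterol gene, from 250 bases before to 50 after the start site (horizontal axis, bases), and genes with several starts have several bars. Coloured blocks are NF-Y boxes and the black block in Hmgcs1 is the match to TCACNCCAC, the only form of the sterol regulatory element searched. An NF-Y box is carried by 13 of 14 synthesis genes, 4 of 5 control genes, 4 of 4 genes of uptake and pools and 0 of 4 efflux genes with a window. Over all genes with a window the share is 41.1%.

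By limma 0 of the 5 genes that control the pathway passed, where 2.33% of all genes rose and 1.98% fell. Their median log2 fold change was 0.06. Srebf2, which encodes the factor that drives the synthesis enzymes, had values of 9844 and 8370 in WT and 9326 and 8568 in OPNKO. Both OPNKO libraries lay between the WT libraries, and the log2 fold change was -0.02 ± 0.09 (SE; limma adjusted p = 0.921). Insig1, a retention protein gene that SREBP itself raises, had 7418 and 6223 in WT and 7920 and 7005 in OPNKO, which overlap (log2 fold change 0.13 ± 0.10, SE; limma adjusted p = 0.496). Its value ran from 0.006 without WT replicate 2 to 0.26 without WT replicate 1. Scap, the escort protein gene (-0.07), Srebf1, the relative that favours fatty acid synthesis (0.06), and Insig2 (0.13) did not pass either. For Insig2 the OPNKO libraries (1233 and 1168) stood above both WT libraries (1109 and 1088). That arrangement was found in 27.7% of all genes and 31.8% of those whose mean value reached 50. In both genotypes replicate 2 was the lower library for all 5 of these control genes. Over all genes tested 53.7% were lower in replicate 2 in WT and 51.0% in OPNKO. The shares were 60.0% and 52.1% of genes whose mean value reached 50.

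Genes of uptake and intracellular pools had 6 of 6 positive log2 fold changes, with a median of 0.23. By limma 0 passed, where 2.33% of all genes rose. At an unadjusted p under 0.05, 3 were higher, against 11.6% of all genes. In 5 of 6 the OPNKO libraries stood above both WT libraries, an arrangement found in 27.7% of all genes and 31.8% of those whose mean value reached 50. Nceh1 encodes neutral cholesterol ester hydrolase, which frees stored cholesterol in macrophages. Its values were 28253 and 23235 in WT and 33274 and 34300 in OPNKO, which do not overlap. The log2 fold change was 0.40 ± 0.10 (SE; limma adjusted p = 0.0766) and came to 0.26 without WT replicate 2. DESeq2 called Nceh1 (DESeq2 adjusted p = 0.003), as well as Mylip and Stard4, where it called 4.72% of all genes higher. By edgeR 0 of the 6 were called, where 2.59% of all genes it tested were higher.

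Mylip, an LXR target whose product marks lipoprotein receptors for degradation, had values of 1164 and 1388 in WT and 1652 and 1734 in OPNKO. Here, unlike in the synthesis genes, WT replicate 2 was above WT replicate 1, and the log2 fold change was 0.41 ± 0.10 (SE; limma adjusted p = 0.0679). Stard4, a carrier of sterol between membranes that SREBP2 raises, had 4651 and 3980 in WT and 5480 and 5357 in OPNKO (log2 fold change 0.33, limma adjusted p = 0.0769). Npc2, a lysosomal cholesterol-binding protein gene, had 33880 and 31714 in WT and 37092 and 33742 in OPNKO (log2 fold change 0.11, limma adjusted p = 0.485). Npc1, the membrane partner of NPC2 in moving cholesterol out of lysosomes, and Soat1, which esterifies cholesterol for storage, had log2 fold changes of 0.12 and 0.09. The ester-forming gene Soat1 and the ester-cleaving gene Nceh1 thus differed in size, though the difference between them was not tested.

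Among efflux genes Abcg1 rose and the others did not pass. Abcg1 lies on the plus strand of chromosome 17 from 31057675 to 31117988 and had values of 46973 and 45475 in WT and 66214 and 72033 in OPNKO. Each genotype was tight and the groups lay far apart. The WT mean was 46224 ± 1059 and the OPNKO mean 69124 ± 4114 (SD, n = 2). OPNKO was higher by 0.58 ± 0.08 on the log2 scale (SE; limma adjusted p = 0.0143), and by 0.52 to 0.64 when any 1 library was left out. It also passed by edgeR and DESeq2, and in the authors' deposited table its adjusted p was 1.99e-11. Its adjusted p was 0.171 without WT replicate 1, 0.2 without WT replicate 2 and 0.0809 without OPNKO replicate 2.

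Abca1, the exporter that loads cholesterol onto lipid-poor apolipoprotein, had values of 9640 and 10082 in WT, 14401 in OPNKO replicate 1 and 10594 in OPNKO replicate 2. Both OPNKO libraries were above WT, but the second lay near it (log2 fold change 0.33 ± 0.13, SE; limma adjusted p = 0.216). Apoe, which encodes the lipid carrier apolipoprotein E, had 163394 and 179692 in WT, 223657 in OPNKO replicate 1 and 126568 in OPNKO replicate 2. The OPNKO libraries fell on either side of WT, and the log2 fold change was -0.03 ± 0.24 (SE; limma adjusted p = 0.966). The LXR genes Nr1h3 (LXR alpha, 0.16) and Nr1h2 (LXR beta, -0.13) did not pass.

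Both oxysterol genes had negative values without passing. Cyp27a1, which encodes the sterol 27-hydroxylase, had 1049 and 942 in WT and 836 and 695 in OPNKO; these groups did not overlap, and the log2 fold change was -0.38 ± 0.12 (SE; limma adjusted p = 0.117). It was the 1 member lower at an unadjusted p under 0.05. Ch25h, the cholesterol 25-hydroxylase gene that interferon raises, had 974 and 1148 in WT and 830 and 1118 in OPNKO, which overlap (log2 fold change -0.13 ± 0.15, SE; limma adjusted p = 0.662).

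Set side by side, the responses of synthesis and efflux genes to genotype differed by less than the spread between libraries. The median log2 fold change was 0.26 over 17 synthesis genes and 0.16 over 5 efflux genes, a difference of 0.10, while the same difference varied by 0.20 (pooled SD, n = 2 per genotype) between libraries of one genotype. By library pair, synthesis minus efflux was -0.33 for OPNKO replicate 1 against WT replicate 1 and 0.02 for OPNKO replicate 1 against WT replicate 2. It was 0.13 and 0.35 for OPNKO replicate 2 against WT replicates 1 and 2. Without OPNKO replicate 2 the difference turned to -0.15. With 2 libraries against 2, an exact two-sided permutation test cannot give a p under 0.333, so none was run.

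The WT libraries differed from each other in the synthesis genes. In all 17 WT replicate 2 lay below WT replicate 1, with a median log2 difference of -0.18, whereas 53.7% of all genes tested and 60.0% of those whose mean value reached 50 were lower there. The count was 16 with TMM factors and 15 with equal library totals. A fall of at least 1.2-fold was seen in 4 of 17 (Pmvk, Tm7sf2, Acat2 and Sqle), against 12.4% of all genes and 6.33% of those whose mean value reached 50. A rise of that size was seen in 0 of 17, against 20.2% and 7.79% of the same sets. The 5 control genes were lower in WT replicate 2 as well, and efflux genes were split, with 3 of 5 lower and a median of -0.05. With 1 library a side there is no test. WT replicate 2 also had the highest sums of fibroblast, endothelial, epithelial, erythroid and platelet, and B and plasma cell markers of the 4 libraries. The fibroblast markers made up 0.0126% of its values. What part these transcripts have in the lower synthesis genes was not tested.

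This gap between the WT libraries bears on the comparison with OPNKO. Both OPNKO libraries lay above WT replicate 2 in 17 of 17 synthesis genes, against 39.2% of all genes and 44.1% of those whose mean value reached 50. They lay above WT replicate 1, the higher WT library, in 12 of 17, against 37.9% and 39.1% of the same sets. These are the same 12 genes whose groups did not overlap, because WT replicate 2 lay below WT replicate 1 in all 17, so the count adds no further observation. Idi1 and Lss were nearly equal in the WT libraries, with differences of -0.03 and -0.02, while the WT gap for Cyp51 was -0.21 and for Sc5d -0.22.

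The OPNKO libraries differed in the efflux genes instead. In OPNKO replicate 2, Apoe was lower by 0.82, Nr1h2 by 0.52 and Abca1 by 0.44 on the log2 scale than in OPNKO replicate 1, so 3 of 5 efflux genes were at least 1.2-fold lower, against 19.5% of all genes and 12.1% of those whose mean value reached 50. Of the 17 synthesis genes 0 were lower by that fold and 0 higher by it, against 16.1% of all genes and 7.39% of those above that mean being higher, and 6 of 17 were lower at all, against 51.0% of all genes. Abcg1 went the other way, 0.12 higher in OPNKO replicate 2.

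**Figure D4:**
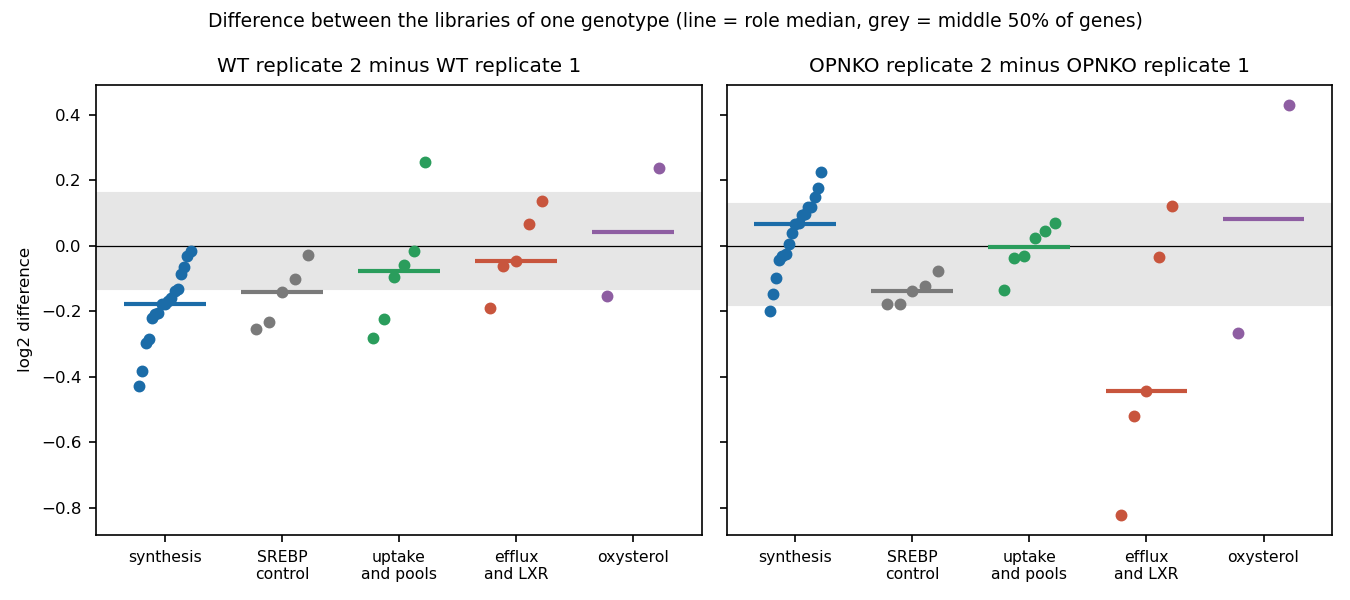
Log2 differences between replicate 2 and replicate 1 (vertical axis) are shown by role for WT (left) and OPNKO (right), with 1 point per gene, a line at the role's median and a grey band for the middle 50% of all genes tested. All 17 synthesis genes are below 0 in WT, and the lowest efflux points in OPNKO are Apoe, Nr1h2 and Abca1.

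Levels were compared between genes as normalized value per kilobase of annotated exon. On this scale Apoe stood far above the rest, at 80235 in WT and 81905 in OPNKO. Abcg1 came next at 6334 in WT and 9472 in OPNKO, then Npc2 (6031 and 6513) and Nceh1 (4901 and 6432). The highest synthesis gene was Hmgcs1 at 2738 and 3416 and the lowest was Tm7sf2 at 144 and 151. The called synthesis gene Idi1 was among the lowest, at 237 and 330. Lengths join all annotated exons of a gene, so genes with rarely used exons come out too low on this scale.

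**Figure D5:**
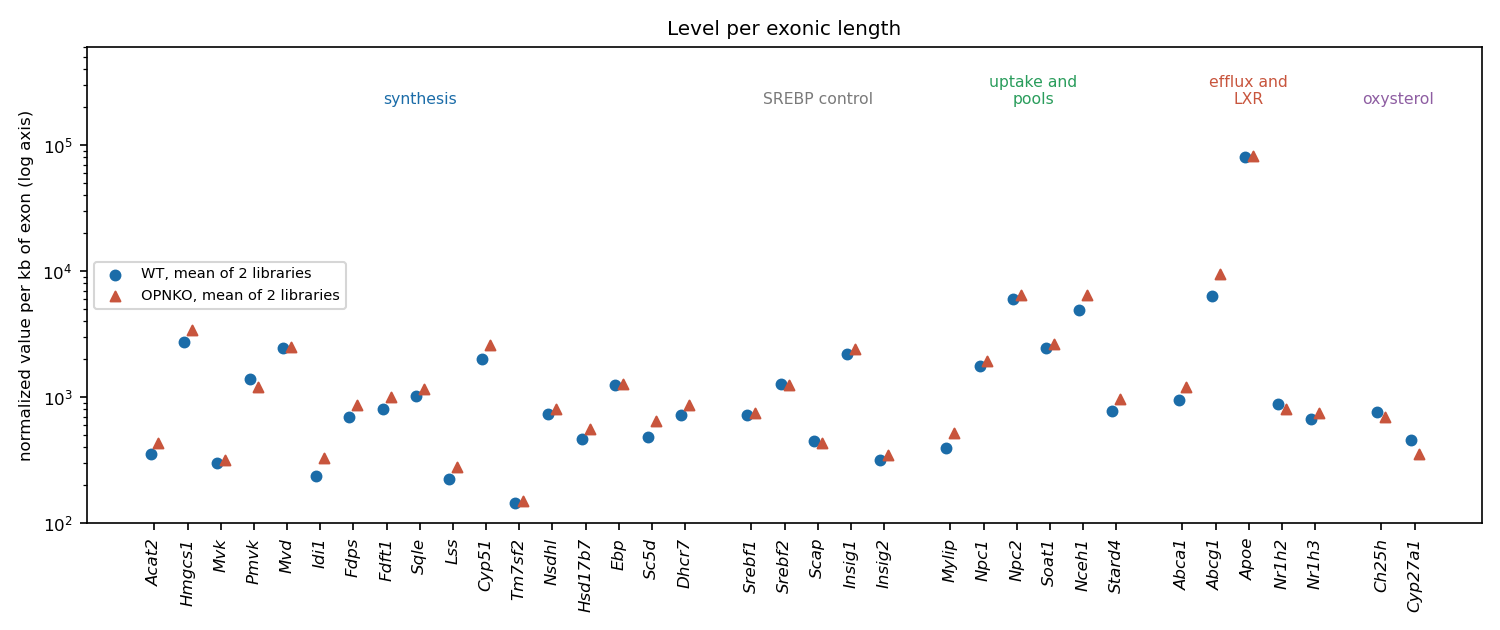
Mean normalized value per kilobase of exon (log axis) is plotted for the 35 genes in WT (circles) and OPNKO (triangles), 2 libraries each. Apoe is the highest at 80235 and 81905, and Tm7sf2 the lowest at 144 and 151.

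Other genes of these pathways were counted from lists of names. Of 19 further genes of sterol and fatty acid synthesis and SREBP response found in the table, 1 rose and 0 fell, against 2.33% and 1.98% of all genes. Elovl6, a fatty acid elongase gene, went from 483 and 488 in WT to 691 and 769 in OPNKO (log2 fold change 0.59 ± 0.10, SE; limma adjusted p = 0.0273). The median log2 fold change over the 19 genes was 0.16. The desaturase gene Scd2 (0.27, limma adjusted p = 0.0766) and the mitochondrial thiolase gene Acat1 (-0.25, limma adjusted p = 0.0848) did not pass by limma. Of these named genes DESeq2 called Elovl6 and Scd2 higher (DESeq2 adjusted p = 0.009 and 0.018) but not Acat1 (DESeq2 adjusted p = 0.086). DESeq2 called 4.72% of all genes higher. Of 25 further genes of efflux, transport and LXR response, 0 passed by limma or edgeR, and the median was 0.06. At an unadjusted p under 0.05, 3 were higher and 3 lower, where the shares over all genes were 11.6% and 9.54%. The nearest to the threshold were Tspo, a mitochondrial outer membrane protein gene (-0.37, limma adjusted p = 0.0656), and the apolipoprotein gene Apoc1 (0.63, limma adjusted p = 0.0975). DESeq2 called 2 of the 25, Tspo lower and the endocytic receptor gene Lrp1 higher (DESeq2 adjusted p = 0.005 and 0.034), where it called 8.65% of all genes in either direction.

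Some members share exon bases with other annotated genes, and the sources used here do not say whether counting used strand. Fdps is the most affected, since 1124 of its 1453 exon bases in the GENCODE M21 basic set also belong to Gm43738 on the same strand, so its values are uncertain. On the opposite strand Fdft1 shares 774 bases with the cathepsin gene Ctsb, Hmgcs1 557 bases with Gm48342, Idi1 323 bases with Gm48574 and Cyp51 166 bases with Akap9. Sc5d and Abcg1 share none.

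The authors' deposited table called 4 of the 35 genes at an adjusted p of 0.05, all higher, against 2.73% of its rows. They were Abcg1, Cyp51, Hmgcs1 and Nceh1, so Abcg1 and Cyp51 were called there and by limma. In the authors' deposited table Idi1 had an adjusted p of 0.169 and Sc5d one of 0.0553.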

How the data were processed

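Flow-sorted alveolar macrophages were profiled in 4 libraries, 2 WT and 2 OPNKO. Titles call them bulk RNA-seq although the design text says otherwise, and the deposited table has 1 column per library. The authors deposited a normalized signal per gene and library, per the file headers, together with their log2 fold change of OPNKO over WT and its standard error. A Wald statistic (a score), the raw p-value and the FDR-corrected one also come from the authors' deposited table. In no stated order, the submitters' processing notes name STAR 2.4.1d, HTSeq 0.6.1p1, Trim Galore 0.4.0 and edgeR; genome build, annotation and strand setting are nowhere given in the sources used here. The deposited signal, divided by what 1 read is worth in its library, gave a whole number for 100% of values, within 0.001 reads, so whole reads were recovered (35793800 to 44759630 per library). The 4 size factors had a geometric mean of 0.900. Left out were 1 row without a symbol and 2 columns without a name.

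Values were kept in the authors' scaling. The test was limma 3.58.1 in R 4.3.3 with trend, on log2(value + 1) of the 16430 genes with a mean of at least 1 (324 were left out), because the deposited unit is not a count. A fold change on this scale understates the change of low genes. The same code was tested on simulated data with known changes. Alternatives were pseudocounts of 0.5 and 8, no filter, a minimum of 50, TMM factors, equal totals, a replicate block, no trend, edgeR 4.0.16 and DESeq2 1.42.0 on recovered reads, and leaving out each library.

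Members and gene lists were chosen with earlier results of these data known. Values in all libraries are given for members that passed, for the 2 with the highest mean and the 1 with the greatest fold change of each role, and for others where the pathway's account needed them, which were chosen after their values were seen. Of the further genes, some of those with the smallest p were named, up to 4 of each list. Lengths and coordinates came from GENCODE M21 (GRCm38; 16541 identifiers matched) and promoters from RefSeq (GRCm38.p6). Exon lengths per kilobase use all transcripts. Pictures were drawn with matplotlib 3.10.9.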

Additional observations from a re-analysis of the deposited data

How the results depend on the processing

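The 4 members called higher by limma became 0 without a filter on low values and 0 with no trend, 2 with a minimum mean of 50 (Abcg1 and Idi1) and 10 with DESeq2; edgeR, TMM factors and other pseudocounts gave 4. Synthesis calls, 3 by limma, were 0, 0, 1 and 6 under the same 4 settings, and the efflux call of Abcg1 was lost without a filter and with no trend. Over all genes 709 calls became 1 without a filter, 0 with no trend (2468 at an unadjusted p under 0.05) and 1135 with DESeq2; the cause was not tested. Leaving out 1 library at a time gave 4 to 545 calls over all genes, 0 to 2 members higher, 0 to 1 synthesis genes higher and 0 to 1 efflux genes higher. The difference between synthesis and efflux medians ranged from -0.15 (without OPNKO replicate 2) to 0.26. With equal totals, 2 in place of 4 synthesis genes were lower by at least 1.2-fold in WT replicate 2. Among single genes, Srebf2 (-0.02) ranged from -0.1391 to 0.0949 when 1 library was left out, the higher value coming without WT replicate 1; it was 0.0391 without OPNKO replicate 2. Apoe (-0.03) turned to 0.0139 with edgeR and 0.0192 with DESeq2, and ranged from -0.437 without OPNKO replicate 1 to 0.3843 without OPNKO replicate 2. Ch25h (-0.13) ranged from -0.3491 without OPNKO replicate 2 to 0.0801 without OPNKO replicate 1. Other members named by the rule kept their sign, though not their size, under each alternative run.

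With the replicate block, 1566 genes were called over all, 12 members higher, 8 of them synthesis genes, and 1 lower (Cyp27a1). Differences between replicates 1 and 2 did not go together in the genotypes (Pearson r = -0.03 across 11623 genes, which are not independent replicates). Such a correlation cannot exclude pairing. The sample titles give only a replicate number, so the block was not read as a paired design.

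Precision is limited by the 2 libraries a group, and every member had at least 497 reads in each library.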
